A study of Mus musculus with 4 samples.

Results

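The genes that write, maintain and erase DNA methylation were followed in TT2 mouse embryonic stem cells depleted of Hnrnpk. They were chosen by name from the authors' gene table: Dnmt1, Dnmt3a, Dnmt3b, Dnmt3l, Uhrf1, Tet1, Tet2, Tet3 and Tdg, 9 genes of the 22138 listed. TT2 is a line of C57BL/6xCBA background, given as female, cultured feeder-free in medium with serum and LIF, the cytokine used to hold stem cells undifferentiated. Cells received control siRNA (n = 2 libraries) or siRNA against Hnrnpk (n = 2 libraries), at 100 nM and then, 24 hours later, at 50 nM, and RNA was taken about 72 hours after the second transfection by the labels' protocol, while the series' design text gives 72 hours without naming which transfection. Hnrnpk encodes hnRNP K, a protein that binds C-rich RNA and DNA. The sources used here give neither the siRNA sequences nor how many were pooled. The comparison asked which of these transcripts changed when it was depleted. The series' title links hnRNP K to silencing by SETDB1, a histone H3 lysine 9 methyltransferase.

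DNA methylation in mammals is placed mainly on cytosines followed by guanine (CpG). DNMT3A and DNMT3B set it on unmethylated DNA, helped by DNMT3L, a relative with no catalytic activity of its own that stimulates both. DNMT1 copies it onto the new strand after replication, and UHRF1 brings DNMT1 to hemimethylated DNA. TET enzymes oxidize 5-methylcytosine, and the glycosylase TDG removes the more oxidized forms so that base excision repair can restore cytosine. Embryonic stem cells grown in serum are known for abundant DNMT3B, DNMT3L and TET1.

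The 9 genes did not move as 1 group. Dnmt3l rose to 1.96 times its control level while Dnmt3b and Dnmt3a fell to 0.449 and 0.451 times theirs. Dnmt1 and Uhrf1 fell together, to 0.638 and 0.652 times the control level, and Tet1 fell to 0.73 times. Tet2, Tet3 and Tdg did not pass the test. In all, 1 of the 9 was called higher and 5 were called lower by limma at a Benjamini-Hochberg adjusted p under 0.05. Calls were common in this comparison: 32.2% of the 12486 genes tested were called higher and 35.0% lower. The count of members called therefore says little, and the size of each change is given beside its rank among all genes tested. The median log2 change of the 9 was -0.46, against -0.015 over all genes tested.

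The start regions of the de novo genes and of Dnmt1 are shown to let the CpG content of the DNMT3 genes be compared. Each runs from 250 bases before to 50 bases after a transcript start, 5′ to 3′, as RefSeq gives it on GRCm38.p6. Capitals mark CpG dinucleotides.
Dnmt3b (chr2:153649199-153649498, plus strand): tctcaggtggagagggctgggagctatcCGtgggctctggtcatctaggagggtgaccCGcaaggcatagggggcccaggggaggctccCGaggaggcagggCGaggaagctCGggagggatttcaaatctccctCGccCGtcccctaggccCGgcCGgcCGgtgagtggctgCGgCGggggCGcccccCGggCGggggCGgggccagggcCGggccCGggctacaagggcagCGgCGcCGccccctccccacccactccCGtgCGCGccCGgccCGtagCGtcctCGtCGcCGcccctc
Dnmt3a, internal start (chr12:3891494-3891793, plus strand): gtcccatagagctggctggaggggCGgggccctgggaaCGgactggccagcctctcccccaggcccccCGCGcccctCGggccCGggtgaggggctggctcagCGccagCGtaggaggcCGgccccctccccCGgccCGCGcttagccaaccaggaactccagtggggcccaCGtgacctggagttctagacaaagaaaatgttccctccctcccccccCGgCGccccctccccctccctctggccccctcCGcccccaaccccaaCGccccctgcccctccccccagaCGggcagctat
Dnmt3l (chr10:78042037-78042336, plus strand): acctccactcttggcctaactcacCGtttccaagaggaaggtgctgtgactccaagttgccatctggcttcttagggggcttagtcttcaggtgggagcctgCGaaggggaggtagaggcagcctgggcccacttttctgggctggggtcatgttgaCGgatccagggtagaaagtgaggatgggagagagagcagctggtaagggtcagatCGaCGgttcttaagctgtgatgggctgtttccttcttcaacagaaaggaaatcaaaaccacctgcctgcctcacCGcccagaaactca
Dnmt1 (chr9:20952574-20952873, minus strand): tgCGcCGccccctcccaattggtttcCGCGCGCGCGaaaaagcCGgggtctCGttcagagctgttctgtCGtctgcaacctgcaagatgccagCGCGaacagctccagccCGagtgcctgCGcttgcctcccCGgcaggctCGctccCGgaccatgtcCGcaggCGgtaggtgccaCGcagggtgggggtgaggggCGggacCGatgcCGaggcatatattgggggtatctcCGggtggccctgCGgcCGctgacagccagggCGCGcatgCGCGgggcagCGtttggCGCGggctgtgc
The internal start of Dnmt3a gives the shorter isoform known from embryonic stem cells. For Dnmt3l the start with the most CpGs is shown, and for Dnmt1 likewise. The RPKM values are per gene and do not tell which start was used.

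The Dnmt3b region held 30 CpGs and the internal Dnmt3a region 18, and the other 2 Dnmt3a regions held 46 and 47. The 3 Dnmt3l regions held 6, 4 and 3. The median over all 32851 RefSeq promoters of that length was 7, so each Dnmt3l region lay below the median while the regions of Dnmt3a and Dnmt3b lay above it. Among the 3 Dnmt1 regions the counts were 2, 12 and 33, the lowest being under every Dnmt3l region, and the Uhrf1 regions held 12 and 33. The single regions of Tet1, Tet2, Tet3 and Tdg held 17, 57, 22 and 26, so the genes that were not called also lay above that median. The heptamer CCCTCCC, the core of the CT element to which hnRNP K is known to bind, was searched on both strands. It occurred 6 times, overlaps included, at the internal Dnmt3a start, 2 times at Dnmt3b and nowhere in the Dnmt3l region shown, while 21.95% of all promoters held it at least once. The other 2 Dnmt3l regions held it 1 time each and the other 2 Dnmt3a regions 2 times each. It also occurred 1 time in the Dnmt1 region shown, in 1 of the Uhrf1 regions and in the Tet3 region, and was not found in the other Dnmt1 and Uhrf1 regions or in those of Tet1, Tet2 and Tdg. The E2F site TTTGGCGC was found in the Dnmt1 region shown and in 0.514% of all promoters. The shorter E2F letters TTCCCGC were found in 1 of the Uhrf1 regions and in 4.60% of all promoters. These matches describe the letters only.

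The libraries were first checked on the targeted gene and on cell identity. Hnrnpk stood at 236 and 226 RPKM (reads scaled to transcript length and to the mapped reads of the library) after control siRNA and at 68.0 and 70.5 RPKM after Hnrnpk siRNA, in the direction of the labels. All 10 embryonic stem cell markers examined were present, their summed level being 2861 and 2746 RPKM with control siRNA against 2634 and 2674 RPKM with Hnrnpk siRNA. Of these markers, 2 were called higher, 4 were called lower and 4 were not called, with a median log2 change of -0.15. Over all genes tested, 32.2% were called higher and 35.0% lower. Sox2 fell (log2 change -0.53) and Nanog rose (0.82). Pou5f1 was not called (-0.15), but was called lower under quantile normalization (-0.23, limma adjusted p = 0.0109). Leaving out Hnrnpk siRNA replicate 2 also gave a call (-0.26, limma adjusted p = 0.0188), and the change was -0.039 without Hnrnpk siRNA replicate 1; its adjusted p spanned 0.0109 to 0.711 across alternatives. Markers of other states moved with the treatment: 6 two-cell stage genes summed to 0.787 and 0.71 RPKM in the controls and to 39.4 and 46.3 RPKM after Hnrnpk siRNA. Likeness of sequence among these 6 was not examined, so they may share reads and need not be 6 separate readings. Primitive endoderm markers (6 genes) went from sums of 5.20 and 5.17 to 30.3 and 30.9 RPKM, and trophectoderm markers (6 genes) from 30.3 and 35.9 to 68.4 and 73.0 RPKM. All tested markers of those 3 lists were called higher (6 of 6, 5 of 5 and 5 of 5), against 32.2% of all genes tested. No marker was at 0 in all libraries. Krt8 and Krt18 made up most of the trophectoderm sums. Krt8 went from 10.8 and 13.7 to 21.2 and 23.7 RPKM, and Krt18 from 15.8 and 18.9 to 30.9 and 33.2 RPKM. Cdx2 of that list was below 1 RPKM in every library and was not tested. The 6 fibroblast genes summed to 9.46 and 8.01 RPKM in the controls and to 4.08 and 4.32 RPKM after Hnrnpk siRNA. Only Thy1 and Col1a1 of that list were tested, and both were called lower, as were 35.0% of all genes tested. Thy1 went from 6.90 and 5.20 to 2.22 and 2.28 RPKM (log2 change -1.24), and Col1a1 from 2.46 and 2.68 to 1.73 and 1.86 RPKM (-0.42). Lum, Dcn, Col3a1 and Col1a2 were below 0.1 RPKM in every library. The part of such cells in the changes below was not tested. In bulk RNA, a change in the share of cells of a state and a change in RNA per cell cannot be told apart.

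**Figure D1:**
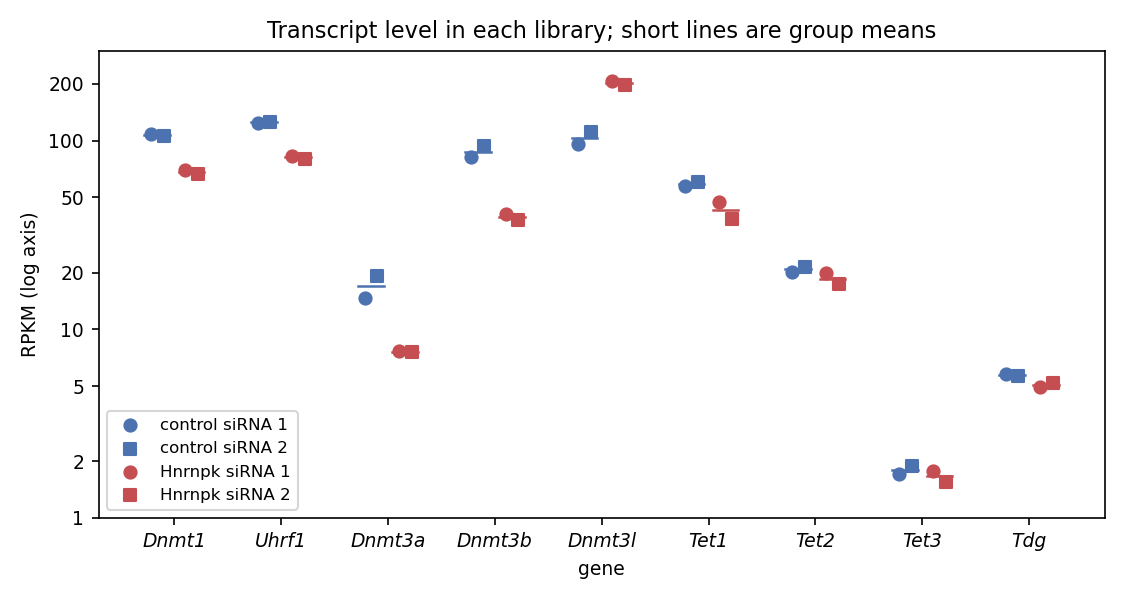
RPKM (log axis) of the 9 genes in each of the 4 libraries, blue for control siRNA and red for Hnrnpk siRNA, circles for replicate 1 and squares for replicate 2, with short lines at the group means. The red points of Dnmt3l sit at 198 and 208 RPKM, above its blue points, while those of Dnmt1, Uhrf1, Dnmt3a, Dnmt3b and Tet1 sit below theirs.

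Dnmt3l (ENSMUSG00000000730, GRCm38 chromosome 10, 78041947 to 78063622) encodes the catalytically inactive partner of the de novo enzymes. It measured 95.8 and 111 RPKM in control replicates 1 and 2 and 208 and 198 RPKM in Hnrnpk siRNA replicates 1 and 2. Both Hnrnpk siRNA libraries were far above both controls, and the gap between groups was several times the gap within either group. Its log2 change on the log2(RPKM + 0.5) scale was 0.97 (SE 0.079, 95% interval 0.80 to 1.15, limma adjusted p = 5.57e-06), higher than that of 95.7% of the genes tested. The gene shares 67 exonic bases, 2.24% of its exonic length, with Aire on the opposite strand, and the sources used here do not say whether counting used strand. Aire was listed at 1.69, 1.53, 1.78 and 1.64 RPKM in the same order, far below Dnmt3l.

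Dnmt3b (ENSMUSG00000027478, chromosome 2, 153649450 to 153687730), the more abundant of the catalytic de novo enzymes here, measured 81.6 and 93.5 RPKM after control siRNA and 40.8 and 37.8 RPKM after Hnrnpk siRNA. The groups did not overlap, and the log2 change was -1.14 (SE 0.0785, 95% interval -1.32 to -0.97, limma adjusted p = 2.11e-06). Only 2.78% of the genes tested had a lower log2 change.

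Dnmt3a (ENSMUSG00000020661, chromosome 12, 3806007 to 3914443) was lower throughout, at 14.6 and 19.1 RPKM after control siRNA and 7.63 and 7.58 RPKM after Hnrnpk siRNA. The control libraries differed from each other more than for any other member in relative terms, and the Hnrnpk siRNA libraries were nearly equal. The log2 change was -1.09 (SE 0.11, 95% interval -1.33 to -0.84, limma adjusted p = 2.09e-05), and 3.37% of the genes tested had a lower one. It was -1.27 without control replicate 1 and -0.90 without control replicate 2.

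The balance within the DNMT3 family changed in every library. Dnmt3l made up 49.9% and 49.6% of the summed RPKM of Dnmt3a, Dnmt3b and Dnmt3l with control siRNA, and 81.1% and 81.3% with Hnrnpk siRNA. RPKM is scaled to length, so levels of different genes may be added, although the sources used here do not give the authors' lengths. The ratio of Dnmt3l to the summed catalytic enzymes went from 0.996 and 0.984 to 4.29 and 4.36, a log2 difference of 2.13 with SDs of 0.0123 and 0.0173 (n = 2 each). This ratio was chosen after the values were seen and is a description. The summed catalytic enzymes alone fell from 96.2 and 113 RPKM to 48.5 and 45.4 RPKM. The sum of all 3 genes was 192 and 223 RPKM in the controls and 256 and 243 RPKM after Hnrnpk siRNA, so it moved opposite to its catalytic members. Dnmt3b and Dnmt3a kept a like ratio to each other, 5.58 and 4.89 in the controls and 5.35 and 4.99 after Hnrnpk siRNA (two-sided exact permutation p = 1, where 2 libraries against 2 cannot give less than 0.33).

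**Figure D2:**
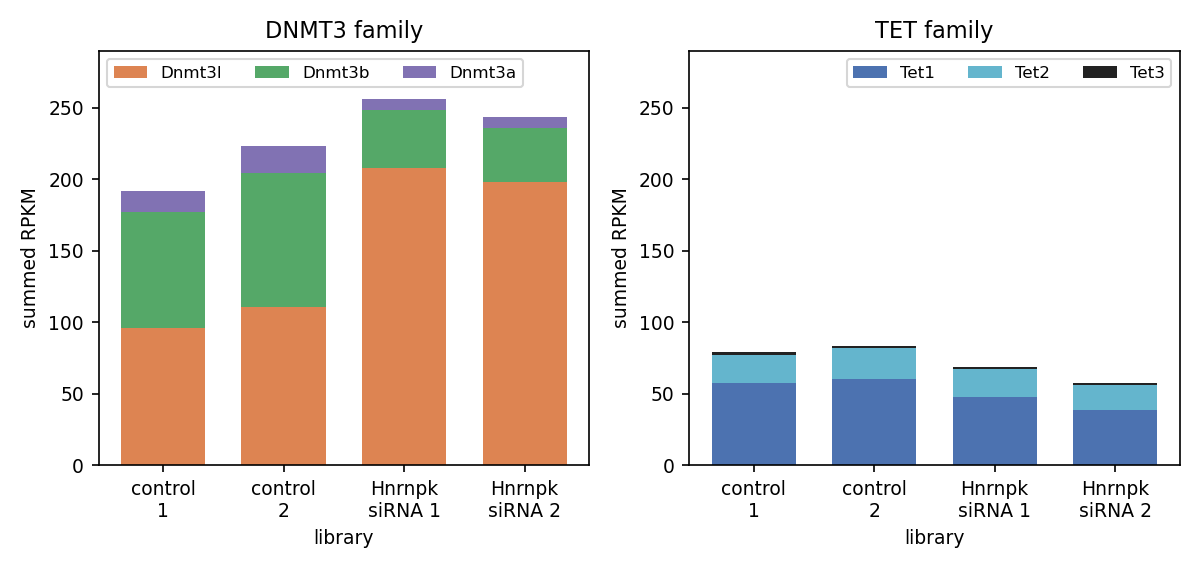
Summed RPKM of the DNMT3 genes (left) and of the TET genes (right) in each of the 4 libraries, both axes from 0, with each gene as a segment. The Dnmt3l segment grows from 95.8 and 111 to 208 and 198 RPKM while the Dnmt3b and Dnmt3a segments shrink, and the TET bars are lower in both Hnrnpk siRNA libraries.

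The maintenance pair fell by like amounts. Dnmt1 (ENSMUSG00000004099, chromosome 9, 20907209 to 20959888), the maintenance methyltransferase, measured 108 and 106 RPKM after control siRNA and 70.1 and 66.4 RPKM after Hnrnpk siRNA. Its log2 change was -0.65 (SE 0.0623, 95% interval -0.78 to -0.51, limma adjusted p = 1.62e-05). Uhrf1 (ENSMUSG00000001228, chromosome 17, 56303321 to 56323486), which recruits DNMT1, measured 124 and 126 RPKM in the controls and 83.3 and 79.8 RPKM after Hnrnpk siRNA. Its log2 change was -0.61 (SE 0.0615, 95% interval -0.75 to -0.48, limma adjusted p = 2.01e-05). Replicates of both genes lay within a few RPKM of each other, and the groups did not overlap. Lower log2 changes were seen in 12.2% of the genes tested for Dnmt1 and in 13.3% for Uhrf1.

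The ratio of Uhrf1 to Dnmt1 was 1.15 and 1.19 in the controls and 1.19 and 1.201 after Hnrnpk siRNA. The log2 difference of this ratio, 0.033, was smaller than the SD of the control libraries (0.0352). The exact permutation p was 0.33, the smallest the design allows. A processed pseudogene, Gm5648, shares 1590 bases of the Uhrf1 transcript at 98.3% identity, 44.3% of its length. The sources used here do not say how reads matching both were treated, so part of the Uhrf1 level is uncertain.

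The TET genes differed among themselves. Tet1 (ENSMUSG00000047146, chromosome 10, 62804570 to 62908996), the main TET enzyme of embryonic stem cells, measured 57.5 and 60.3 RPKM after control siRNA and 47.5 and 38.5 RPKM after Hnrnpk siRNA. The groups did not overlap, and the Hnrnpk siRNA libraries were further apart than the controls. The log2 change was -0.46 (SE 0.0921, 95% interval -0.66 to -0.25, limma adjusted p = 0.00166), with 19.8% of the genes tested lower. It was -0.61 without Hnrnpk siRNA replicate 1 and -0.31 without replicate 2.

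Tet2 (ENSMUSG00000040943, chromosome 3, 133463679 to 133545139) measured 20.03 and 21.5 RPKM in the controls and 19.8 and 17.4 RPKM after Hnrnpk siRNA. The nearest libraries of the groups were almost equal, and the log2 change of -0.16 was not called (95% interval -0.34 to 0.020, limma adjusted p = 0.104). It was called without Hnrnpk siRNA replicate 1 (-0.25, limma adjusted p = 0.0434) and with GC trends removed (-0.22, adjusted p = 0.0219); adjusted p spanned 0.0219 to 0.58 across alternatives. Without Hnrnpk siRNA replicate 2 it was -0.065.

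Tet3 (ENSMUSG00000034832, chromosome 6, 83362373 to 83459084) was the lowest member, at 1.71 and 1.88 RPKM in the controls and 1.77 and 1.55 RPKM after Hnrnpk siRNA. Its groups overlapped. The log2 change of -0.085 was not called (95% interval -0.30 to 0.13, limma adjusted p = 0.458) and became 0.026 under quantile normalization.

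Tet1 took 72.6% and 72.1% of the summed TET RPKM in the controls and 68.8% and 67.1% after Hnrnpk siRNA. The ratio of Tet2 to Tet1 rose in value from 0.349 and 0.356 to 0.417 and 0.451 (log2 difference 0.30, two-sided exact permutation p = 0.33, the smallest the design allows). The TET sum was 79.2 and 83.7 RPKM in the controls and 69.1 and 57.4 RPKM after Hnrnpk siRNA. Set against that sum, the 3 DNMT3 genes stood at ratios of 2.42 and 2.67 in the controls and 3.71 and 4.24 after Hnrnpk siRNA (log2 difference 0.64, exact permutation p = 0.33). The catalytic enzymes Dnmt3a and Dnmt3b alone gave ratios of 1.21 and 1.35 in the controls and 0.702 and 0.791 after Hnrnpk siRNA (log2 difference -0.78). The sign of the change in balance between writers and erasers therefore depended on whether Dnmt3l was counted. The second ratio was chosen after the values were seen.

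Tdg (ENSMUSG00000034674, chromosome 10, 82629828 to 82650799) encodes the glycosylase that excises oxidized methylcytosine. It measured 5.79 and 5.63 RPKM in the controls and 4.94 and 5.16 RPKM after Hnrnpk siRNA. Both Hnrnpk siRNA libraries were below both controls, but the log2 change of -0.16 was not called (95% interval -0.34 to 0.012, limma adjusted p = 0.0892). With GC trends removed it was called (-0.19, adjusted p = 0.0434), and under quantile normalization the change was -0.090; adjusted p spanned 0.0434 to 0.373 across alternatives. Over 95.2% of the Tdg transcript, other genes hold a copy at 95% identity or more. The longest is a processed pseudogene on chromosome 15, listed in the table as Gm5806 at 0.034, 0.0252, 0.0171 and 0.0467 RPKM. The level of Tdg is uncertain for that reason, and it also shares 367 exonic bases with Glt8d2 on the opposite strand, listed at 0.0898 to 0.146 RPKM.

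**Figure D3:**
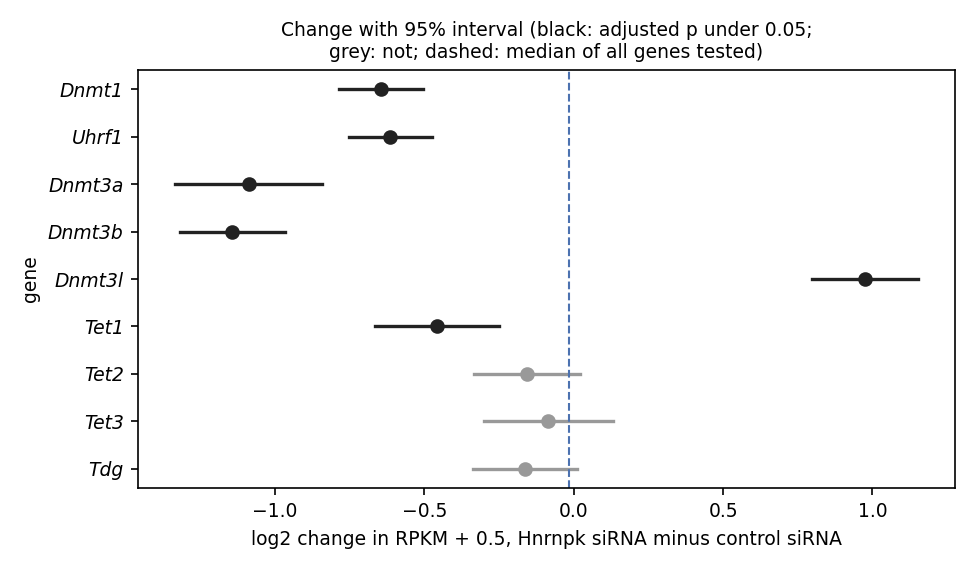
Log2 change of RPKM + 0.5 (Hnrnpk siRNA minus control siRNA) of the 9 genes with 95% intervals from limma, black where the adjusted p is under 0.05 and grey where it is not, with a dashed line at the median of all genes tested (-0.015). Dnmt3l stands alone on the right at 0.97, and Dnmt3a and Dnmt3b lie furthest left.

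Over all 9 genes, the Hnrnpk siRNA libraries both lay above both controls for 1 and both below for 7, with overlap only for Tet3. Over all genes tested those shares were 41.2% and 43.5%. The order of levels changed at the top. In the controls Uhrf1 was highest, followed by Dnmt1 and Dnmt3l, which overlapped each other, then Dnmt3b, Tet1, Tet2, Dnmt3a, Tdg and Tet3. After Hnrnpk siRNA Dnmt3l was highest, at 198 to 208 RPKM, followed by Uhrf1 and Dnmt1. Tet1 and Dnmt3b came next and overlapped, at 38.5 to 47.5 and 37.8 to 40.8 RPKM, and the lower 4 kept their order. The genes closest in pattern to Dnmt3b, the member with the largest change by a narrow margin over Dnmt3a, were Gm98, Cenpk and Lgals9, by Euclidean distance over the 4 gene-centred log2 values (0.0657, 0.0673 and 0.069). Their log2 changes were -1.19, -1.13 and -1.17. Without control replicate 1 the log2 change of Dnmt3a was the larger, -1.27 against -1.24. Likeness over 4 libraries of 2 groups is a weak description.

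Beyond the 9 genes, 52 genes of the pathway in 6 lists were examined. Of these, 50 were tested, 18 were called higher and 17 lower, near the shares over all genes tested (32.2% higher and 35.0% lower). Those shares also stand beside the counts of each list and of the S phase genes below, which say little by themselves. The median log2 change of the 50 genes was 0.037. Of the 8 genes listed as partners of maintenance, 6 were called lower, against 35.0% of all genes tested, and 2 were not called. Their median log2 change was -0.48. 2810417H13Rik, now named Pclaf, encodes a PCNA-associated factor whose ubiquitylation by UHRF1 helps recruit DNMT1. It fell from 20.2 and 21.9 to 9.66 and 9.22 RPKM (log2 change -1.11). Dppa3, which binds UHRF1 and keeps it from chromatin, fell from 74.2 and 70.5 to 39.2 and 42.2 RPKM (-0.82), so a partner and an antagonist of UHRF1 both fell. Cdca7, which recruits the remodeller HELLS, fell from 67.2 and 64.5 to 42.1 and 40.9 RPKM (-0.66). Usp7, a deubiquitinase that stabilizes DNMT1 and UHRF1, and the replicative DNA ligase Lig1 fell by 0.50 and 0.47 on the log2 scale. Hells was called lower (-0.20, limma adjusted p = 0.0478), but not with no filter (adjusted p = 0.115), scaling by median ratios (0.0707) or no variance trend (0.0818), nor without control replicate 2 (-0.12, adjusted p = 0.251) or without Hnrnpk siRNA replicate 2 (-0.12, adjusted p = 0.273); adjusted p spanned 0.000922 to 0.273 across alternatives. Pcna and Uhrf2 had log2 changes of 0.11 and 0.028 and were not called, and without Hnrnpk siRNA replicate 1 Pcna was called higher.

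Regulators of de novo methylation were called lower in 4 of 6 cases and higher in 1, with a median of -0.31. With no filter, scaling by median ratios or no variance trend 3 were called lower, and with GC trends removed 5. Prdm14, a transcriptional repressor of Dnmt3b, Dnmt3l and Uhrf1 in embryonic stem cells, rose from 6.68 and 5.86 to 8.69 and 8.08 RPKM (log2 change 0.39, limma adjusted p = 0.00263). Of those known targets, Dnmt3b and Uhrf1 were lower and Dnmt3l was higher. Whsc1, now named Nsd2, and Nsd1, which place the H3K36me2 mark that DNMT3A reads, had log2 changes of -0.87 and -0.48. Kdm1b, an H3K4 demethylase, fell from 8.75 and 8.90 to 6.47 and 6.31 RPKM (-0.44).

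Partners of the TET enzymes and of demethylation were called higher in 4 of 9 tested cases and lower in 1, with a median of 0.15. With no filter, quantile normalization or no variance trend 3 were called higher, and with GC trends removed or a replicate block 5. Gadd45b, a stress gene implicated in active demethylation, rose most, from 8.83 and 10.04 to 41.6 and 44.7 RPKM (log2 change 2.14, limma adjusted p = 6.96e-08). Gadd45a rose from 35.0 and 39.7 to 54.6 and 56.9 RPKM (0.57), and Gadd45g was not called (0.045). Idh1, whose product makes the TET cofactor 2-oxoglutarate, had a log2 change of 0.40. Vprbp, now named Dcaf1, a substrate receptor of a ubiquitin ligase that acts on TET proteins, fell by 0.40 on that scale.

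Base excision repair genes went both ways, 4 of 12 higher and 3 lower, with a median of 0.059. Without control replicate 2, 5 were called lower. Neil3, a glycosylase, fell from 2.49 and 2.02 to 0.883 and 0.828 RPKM (-1.02), and Parp1, which senses strand breaks, fell from 396 and 385 to 249 and 236 RPKM (-0.69). Smug1, another glycosylase, rose from 5.53 and 5.09 to 8.47 and 10.1 RPKM (0.75), and the scaffold Xrcc1 rose from 62.6 and 60.6 to 84.3 and 86.3 RPKM (0.47).

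The list of methyl-CpG readers took in Mbd genes whether or not each product binds methylated CpG. Of its 9 tested genes, 5 were called higher and 2 lower, with a median of 0.24. Without either Hnrnpk siRNA library in turn, 3 were called higher and 1 lower, and 1 was called lower with no filter, under quantile normalization and with GC trends removed. Mbd1, a methyl-CpG binding repressor, rose from 5.88 and 6.33 to 11.2 and 10.9 RPKM (0.81). Zfp57, a zinc finger protein that protects methylation at imprinted regions, rose from 78.3 and 80.3 to 99.3 and 103 RPKM (0.35), and Mbd6 had a log2 change of 0.33 (0.56 with GC trends removed). Mbd3, a NuRD subunit that binds methylated CpG poorly, fell from 110 and 120 to 82.9 and 91.4 RPKM (-0.40). That call was lost with GC trends removed (-0.17, limma adjusted p = 0.077); adjusted p spanned 5.18e-06 to 0.077 across alternatives.

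The cycle that supplies the methyl donor S-adenosylmethionine had 4 of 6 genes called higher and 1 lower, with a median of 0.34, and 2 were called lower under quantile normalization. Mat2a and Mat2b, subunits of the synthetase, rose with log2 changes of 0.40 and 0.72; without control replicate 1 the value of Mat2a was 0.24. Mtr, methionine synthase, fell from 15.4 RPKM in both controls to 7.91 and 6.99 RPKM (log2 change -0.998).

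**Figure D4:**
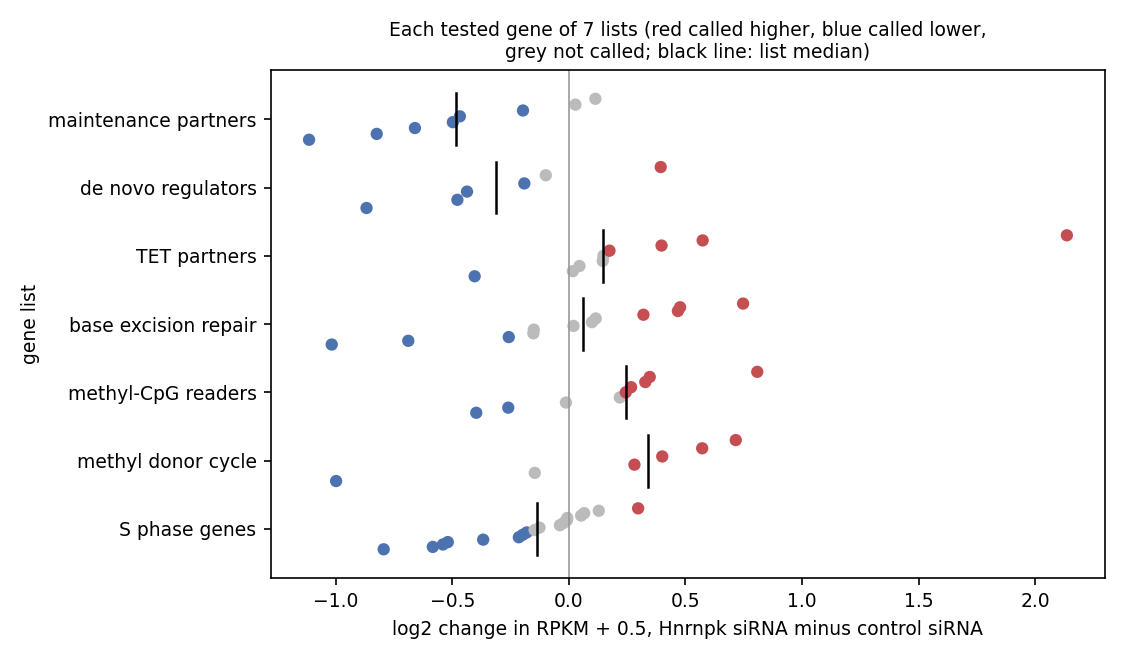
Log2 change of RPKM + 0.5 (Hnrnpk siRNA minus control siRNA) of each tested gene in the 6 pathway lists and the S phase list, red where called higher, blue where called lower and grey where not called, with a black line at each list's median. The maintenance partners lie mostly to the left (median -0.48), and Gadd45b lies alone at the far right of the TET partners (2.14).

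Since Dnmt1 and Uhrf1 are known to be transcribed mainly in cycling cells, 18 S phase genes were set beside them. Of these, 8 were called lower and 1 higher, with a median log2 change of -0.14, and 9 were not called. Without control replicate 2, 5 were called lower. With no filter 6 were called lower, and under quantile normalization 11. The log2 changes of the list ran from -0.79 to 0.30. The summed level was 2463 and 2487 RPKM in the controls and 2306 and 2347 RPKM after Hnrnpk siRNA. Tyms, which makes thymidylate, fell by 0.79 on the log2 scale, beyond Dnmt1 and Uhrf1, while Pola1, Ccne1 and Mcm6 had log2 changes of -0.58, -0.54 and -0.52. The part of the cell cycle in the fall of Dnmt1 and Uhrf1 was not tested.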

How the data were processed

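RNA from 4 libraries was measured as RPKM, in 1 table that the authors deposited with a column for each library. The submitters' processing notes name BWA, SAMtools and the mouse build mm9; the counting tool, the annotation and the handling of multiply matching reads are not given in these sources. Per the labels, RNA was poly(A)-selected in 1 field and rRNA-depleted in another. The series calls the libraries of a group biological replicates; whether they were separate cultures is not stated, so p-values measure only the spread between these libraries. The RPKM values summed to 359659 to 390467 per library. Steps between low values of single-exon genes gave relative depths of 1, 0.982, 0.891 and 0.882 (control replicates 1 and 2, Hnrnpk siRNA replicates 1 and 2). By those steps and GENCODE lengths the members rested on about 2834 (Tet3) to 113710 (Tet1) reads or read pairs, a unit known only to within a factor of 2.

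Values were analysed as log2(RPKM + 0.5), which understates changes of low genes. The test covered genes averaging 0.5 RPKM or more, all 9 members included, and used limma 3.58.1 under R 4.3.3 (mean-variance trend, two-sided, Benjamini-Hochberg over 12486 genes). The test was also run on simulated data of 12486 genes with 200 changed. It called 97% of those changed by 0.5 and 100% of those changed by 1 (log2). Of its 217 calls, 20 were unchanged genes. Far more genes were called in the data than in the simulation, so these rates need not hold for the data. Ratios within libraries were compared with an exact permutation test. Loci, lengths, GC content and BLAST 2.17.0 matches (95% identity, 100 bases or more) came from GENCODE M21 on GRCm38, not the authors' build. GENCODE held 92.8% of the table's genes. Promoters came from RefSeq, where all 9 members matched. Named genes outside the 9 are Hnrnpk, Dppa3, Prdm14, Usp7, Hells, Pou5f1, Sox2 and Nanog. Added to these are up to 4 called genes of each list with the lowest adjusted p, and the 3 nearest patterns. Outside that rule, Pcna, Uhrf2, Gadd45g, Krt8, Krt18, Cdx2, neighbours and copies of members and the fibroblast markers were named after their values were seen. Tcstv3 and Tfap2c were not analysed here. One gene that the rule names is not reported here. Members and lists were chosen with earlier results of these data known. Alternatives were other added values, filters and scalings, GC trends removed, other variance priors, a replicate block and each library left out.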

Additional observations from a re-analysis of the deposited data

How the results depend on the processing

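All 14 alternatives kept the direction and the call of Dnmt1, Uhrf1, Dnmt3a, Dnmt3b, Dnmt3l, Tet1 and Hnrnpk. Members called higher stayed at 1, and members called lower ranged from 5 to 7. Tet2 was called with GC trends removed (-0.22) and without Hnrnpk siRNA replicate 1 (-0.25), where the log2 change ranged from -0.25 to -0.065 over the libraries left out. Tdg was called with GC trends removed (-0.19), and Tet3 turned to 0.026 under quantile normalization; the cause was not tested. The log2 difference of the Dnmt3b to Dnmt3a ratio ranged from -0.11 to 0.079 with a library left out, against -0.017, turning to 0.079 without control replicate 1 and 0.034 without Hnrnpk siRNA replicate 2. With 0.5 RPKM added to each gene, that of Dnmt3l to the catalytic enzymes was 2.11 against 2.13. Of the other 36 named genes, 33 kept their direction and call under all alternatives. Over all genes, those called higher ranged from 3155 to 4760 and those called lower from 3552 to 4900.

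Replicate numbers were not used to pair the libraries. The differences between replicates 1 and 2 correlated at 0.027 between groups (Pearson's r across 12486 genes, which are not independent). That value shows little shared effect of replicate number and cannot tell whether libraries of the same number were prepared together. With a replicate block, 1 member was called higher and 5 lower, as without it. Counts rest on 2 libraries per group, and the spread between cultures may be larger than the one measured.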
